A study of Mus musculus with 8 samples.

Results

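Genes of mitosis and cytokinesis were followed in mouse kidneys with and without a knockdown of Keap1, and with and without ischemia-reperfusion injury (IRI). The set was defined by name as 50 genes, and the probes of the array were assigned to them through their RefSeq accessions. Of these, 49 had a probe, and all 49 passed the filter on dim probes, among 20580 genes tested. Prc1 was not analysed here. In 32 of the 49 genes the signal of the probe used was well above background on all 8 arrays, and in the other 17 at least 1 array fell below that mark.

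During mitosis the cell condenses its replicated chromosomes, attaches them to a spindle of microtubules through the kinetochores, and separates the sister chromatids once a checkpoint has been satisfied. Cytokinesis then cleaves the cell at its middle. Most of the genes in the set are transcribed late in the cell cycle, in G2 and M phase, under the transcription factors FoxM1 and B-Myb with the MuvB complex, and their messages are low in resting cells. Tubule cells of the adult kidney divide rarely, and surviving tubule cells re-enter the cell cycle after ischemic injury.

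Total RNA of whole left kidneys from male mice aged 16 weeks was hybridised to 8 single-colour Agilent arrays, with 2 arrays in each of 4 groups. KD IRI kidneys carried the Keap1 knockdown and were taken 1 day after the left renal artery and vein had been clamped for 45 min and released, with the right kidney left unclamped. WT IRI kidneys were wild-type kidneys treated in the same way. KD normal kidneys carried the knockdown and had no IRI, and WT normal kidneys had neither. Keap1 encodes the adaptor protein that marks the transcription factor NRF2 for degradation. The labels do not say how the knockdown was made and give no strain. Nothing in them ties the 2 arrays of a group to different mice, and the p-values therefore cover the spread between these samples only, which may be technical.

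Levels are log2 signals relative to the 75th percentile of the same array, so that 0 is the signal of the probe at that percentile. A change is the difference of 2 group means on this scale, given with its standard error (SE) from limma and a p-value adjusted over all 20580 genes, and a gene is said to have risen or fallen where that p was under 0.05. Keap1 itself stood at 1.33 and 1.04 in KD IRI, 2.66 and 2.50 in WT IRI, 1.5 and 1.4 in KD normal, and 2.75 and 2.66 in WT normal, so its signal followed the labels. Between 62.1% and 67.8% of the spots on an array were well above background. The first replicate of every group lay on 1 slide and the second on the other, and values within each slide are given beside the pooled ones. Markers of the kidney's most abundant cell type were bright. The summed linear signal of 8 proximal tubule markers was 126 to 162 times the 75th percentile in KD IRI, 135 to 229 in WT IRI, 615 to 661 in KD normal and 578 to 591 in WT normal, and all 8 fell with injury in both genotypes. All 11 tubule injury markers rose with injury in both genotypes.

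The promoters of the set were examined for the elements through which late cell cycle genes are known to be controlled, because most members moved together. RefSeq promoter sequences of the build GRCm38.p6 were at hand for 40 of the 49 genes, with 42 promoters, against 32851 promoters of all genes in the same table. The 250 bases before the annotated start were searched on both strands for the cell cycle homology region (CHR), which is bound by the MuvB complex and was searched as TTTGAA and TTTAAA. They were also searched for CCAAT, which is bound by the factor NF-Y, and for E2F sites as TTTCGCG, as the form TTTGGCG and as TTCCCGC. None of the CHR, CCAAT and E2F words contains another. CCAAT was found in 71.4% of the member promoters and in 33.8% of all promoters. Either form of the CHR was found in 52.4% of the member promoters and 25.2% of all promoters, and a CHR together with CCAAT in 45.2% and 8.78%. The E2F words were found in 7.14% and 5.58%. A match describes the letters of these windows and does not show that a factor is bound.

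The last 120 bases before the start of 8 genes that hold both elements are given first, followed by those of Pttg1, which has neither and fell with injury. They are written 5′ to 3′ on the strand of the gene, with CHR and CCAAT letters in capitals on whichever strand they lie, so that ATTGG is CCAAT and TTCAAA is TTTGAA read from the opposite strand.
Ccnb1 (chr13:100786487-100786606, minus strand): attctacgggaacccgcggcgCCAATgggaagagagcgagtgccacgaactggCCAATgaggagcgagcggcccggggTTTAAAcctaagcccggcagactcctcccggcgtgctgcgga
Cdk1 (chr10:69352913-69353032, minus strand): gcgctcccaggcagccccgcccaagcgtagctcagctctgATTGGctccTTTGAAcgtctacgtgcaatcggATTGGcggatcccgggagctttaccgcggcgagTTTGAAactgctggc
Cdc20 (chr4:118437344-118437463, minus strand): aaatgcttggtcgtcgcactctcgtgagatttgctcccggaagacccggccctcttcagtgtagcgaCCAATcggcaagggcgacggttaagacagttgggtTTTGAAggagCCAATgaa
Plk1 (chr7:122159315-122159434, plus strand): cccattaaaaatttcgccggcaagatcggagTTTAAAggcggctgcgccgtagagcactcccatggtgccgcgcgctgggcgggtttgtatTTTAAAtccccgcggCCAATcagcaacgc
Top2a (chr11:99024190-99024309, minus strand): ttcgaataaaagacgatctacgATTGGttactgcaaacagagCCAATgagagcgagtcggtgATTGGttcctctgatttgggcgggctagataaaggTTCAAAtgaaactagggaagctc
Espl1 (chr15:102296173-102296292, plus strand): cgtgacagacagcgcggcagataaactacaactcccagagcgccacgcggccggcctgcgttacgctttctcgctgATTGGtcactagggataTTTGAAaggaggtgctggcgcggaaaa
Kif11 (chr19:37376262-37376381, plus strand): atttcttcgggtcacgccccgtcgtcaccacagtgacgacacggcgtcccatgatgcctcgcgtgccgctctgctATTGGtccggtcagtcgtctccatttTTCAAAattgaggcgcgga
Ube2c (chr2:164769809-164769928, plus strand): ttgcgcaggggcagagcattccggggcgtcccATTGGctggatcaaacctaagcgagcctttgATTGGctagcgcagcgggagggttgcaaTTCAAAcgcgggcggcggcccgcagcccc
Pttg1 (chr11:43425982-43426101, minus strand): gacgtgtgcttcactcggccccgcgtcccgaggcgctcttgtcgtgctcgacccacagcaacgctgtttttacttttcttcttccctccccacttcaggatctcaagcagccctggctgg

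Ccnb1 carried 2 CCAAT words 5′ of a single CHR, Top2a 3 CCAAT words 5′ of a CHR, and Plk1 2 CHR words with CCAAT nearest to the start. The 17 genes with both a CHR and CCAAT had a median injury response of 3.74 in KD and 1.86 in WT, and the 9 genes with none of the words searched had medians of 2.98 and 1.58. Those 9 were Anln, Mad2l1, Melk, Mybl2, Ncaph, Ndc80, Nuf2, Nusap1 and Pttg1, so that Melk, which rose at least 33.7-fold in KD, and Pttg1, which fell, both lack these words in the window.

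Injury raised nearly the whole set in both genotypes. In KD IRI against KD normal kidneys, 47 of the 49 genes rose and 2 fell, where 27.5% of all genes tested rose and 31.8% fell. The median change of the members was 3.61, against -0.08 for all genes, and was 3.42 on the first slide and 3.93 on the second. In WT IRI against WT normal kidneys, 45 rose, 2 fell and 2 did not pass the test, where 20.6% of all genes rose and 25.2% fell, and the median was 1.86, with 2.48 on the first slide and 1.48 on the second. Pttg1 and the brightest probe of Bub1 were the 2 that fell in each genotype, and Ttk and the brightest probe of Cenpe were the 2 that did not pass in WT. With the slide as a block the counts were 49 and 47 called. Under the normexp background correction described below, 38 members were called in KD and 41 in WT. Ttk, Cdc25c, Cenpa, Ndc80, Kif11, Kif2c and Anln were then called in neither genotype. Ccnb1, Aurkb, Ttk, Cdc25c, Kif11, Kif2c, Anln, Espl1, Ncaph and Iqgap3 passed the filter on dim probes only through injured arrays, which favoured a rise. Of the 17678 genes above background on all arrays, 4741 rose in KD and 3543 in WT. Of the 32 members among them, 30 rose in KD and 29 in WT, and 2 fell in each. In RNA of a whole kidney, more dividing cells and more of these messages per cell cannot be told apart.

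**Figure D1:**
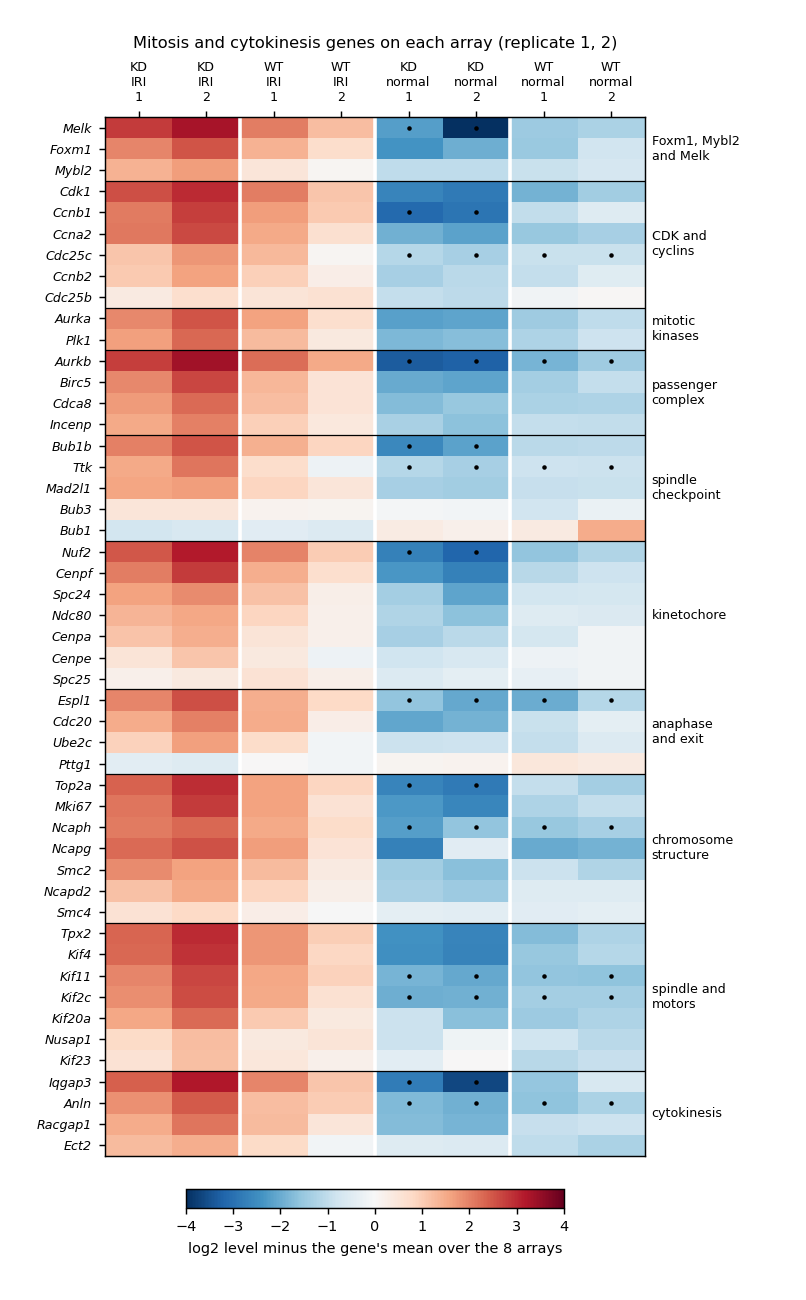
Colour gives the log2 level of each gene on each array minus that gene's mean over the 8 arrays, for the 49 genes in rows grouped by role and the arrays in columns (KD IRI, WT IRI, KD normal, WT normal, replicates 1 and 2), and a dot marks a group in which neither array was well above background. The KD IRI columns are the reddest and the normal columns blue for nearly every gene, and Bub1 and Pttg1 run the other way.

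Foxm1, Mybl2 and Melk all rose in both genotypes. Foxm1 encodes the transcription factor FoxM1, which switches on genes of G2 and mitosis. Its levels were -0.76 and -0.20 in KD IRI, -1.33 and -2.03 in WT IRI, -5.12 and -4.67 in KD normal, and -4.20 and -3.49 in WT normal. Both injured groups lay above both normal groups on every array, by 4.42 ± 0.35 in KD (21.3-fold, adjusted p = 7.44e-05) and by 2.16 ± 0.35 in WT (4.47-fold, adjusted p = 0.00267). Mybl2, which encodes B-Myb, the Myb protein that joins the MuvB complex, had the smallest response of these, with 2.55 ± 0.17 in KD (adjusted p = 4.68e-05) and 1.06 ± 0.17 in WT (adjusted p = 0.00293). Melk, a kinase that is abundant in dividing cells, had the largest. It stood at -0.67 and -0.17 in KD IRI, -1.42 and -2.24 in WT IRI, -5.66 and -7.91 in KD normal, and -4.92 and -4.73 in WT normal. The 2 KD normal arrays lay far apart and were both below background, so the rise in KD is given as at least 33.7-fold (adjusted p = 0.000239).

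The cyclins and the kinase they activate rose together, with all 6 genes of this role called in both genotypes. Cdk1, the kinase that drives entry into mitosis, stood at 0.22 and 0.62 in KD IRI, -0.33 and -1.25 in WT IRI, -5.01 and -5.19 in KD normal, and -4.27 and -3.77 in WT normal. The groups did not overlap, and the change was 5.52 ± 0.32 in KD (45.9-fold, adjusted p = 3.02e-05) and 3.23 ± 0.32 in WT (9.36-fold, adjusted p = 0.00043). Ccna2, the A-type cyclin of S and G2 phase, rose 21.2-fold in KD and 5.65-fold in WT. Ccnb1, the mitotic B-type cyclin, was below background on both KD normal arrays and rose at least 12.2-fold in KD, and it rose 4.31-fold in WT. Ccnb2, the second B-type cyclin, rose by 2.54 ± 0.28 in KD and 1.33 ± 0.28 in WT. Cdc25b, a phosphatase that activates Cdk1, changed least in this role. Its levels were 0.54 and 0.85 in KD IRI, 0.71 and 0.79 in WT IRI, -0.77 and -0.85 in KD normal, and 0.05 and 0.23 in WT normal, which gave rises of 1.51 ± 0.12 in KD (adjusted p = 9.04e-05) and 0.61 ± 0.12 in WT (adjusted p = 0.00728). Its relative Cdc25c was below background in both normal groups, and its rise in KD is at least 1.41-fold. Cdc25c was well above background on both arrays in KD IRI only, so it passed the filter through the group where it was highest.

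Both mitotic kinases outside the passenger complex rose. Aurka, the Aurora kinase of the spindle poles, stood at 1.2 and 1.8 in KD IRI, 0.91 and -0.03 in WT IRI, -2.87 and -2.83 in KD normal, and -2.13 and -1.72 in WT normal. The normal arrays lay close to each other and below all injured arrays, and the change was 4.35 ± 0.33 in KD (20.4-fold, adjusted p = 6.46e-05) and 2.36 ± 0.33 in WT (5.14-fold, adjusted p = 0.00148). Plk1, the Polo kinase that acts from spindle assembly to cytokinesis, rose 13.2-fold in KD and 3.61-fold in WT.

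The chromosomal passenger complex corrects faulty attachments of chromosomes and later marks the cleavage plane. All 4 of its genes rose in both genotypes. Aurkb, its kinase, stood at -1.15 and -0.55 in KD IRI, -1.66 and -2.40 in WT IRI, -7.24 and -7.13 in KD normal, and -5.77 and -5.31 in WT normal. Both normal groups were below background, so the rise is at least 25-fold in KD (adjusted p = 2.15e-05) and at least 8.36-fold in WT (adjusted p = 0.000313). Incenp, the scaffold of the complex, had the smallest rise and was bright on all arrays, at 3.0 and 3.5 in KD IRI, 2.46 and 1.92 in WT IRI, 0.21 and -0.15 in KD normal, and 0.53 and 0.51 in WT normal. That is 9.30-fold in KD (adjusted p = 5.54e-05) and 3.19-fold in WT (adjusted p = 0.00146). Birc5, which encodes survivin, rose 20.5-fold in KD and 4.24-fold in WT, and Cdca8, which encodes borealin, rose by 3.60 ± 0.26 and 2.14 ± 0.26.

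**Figure D2:**
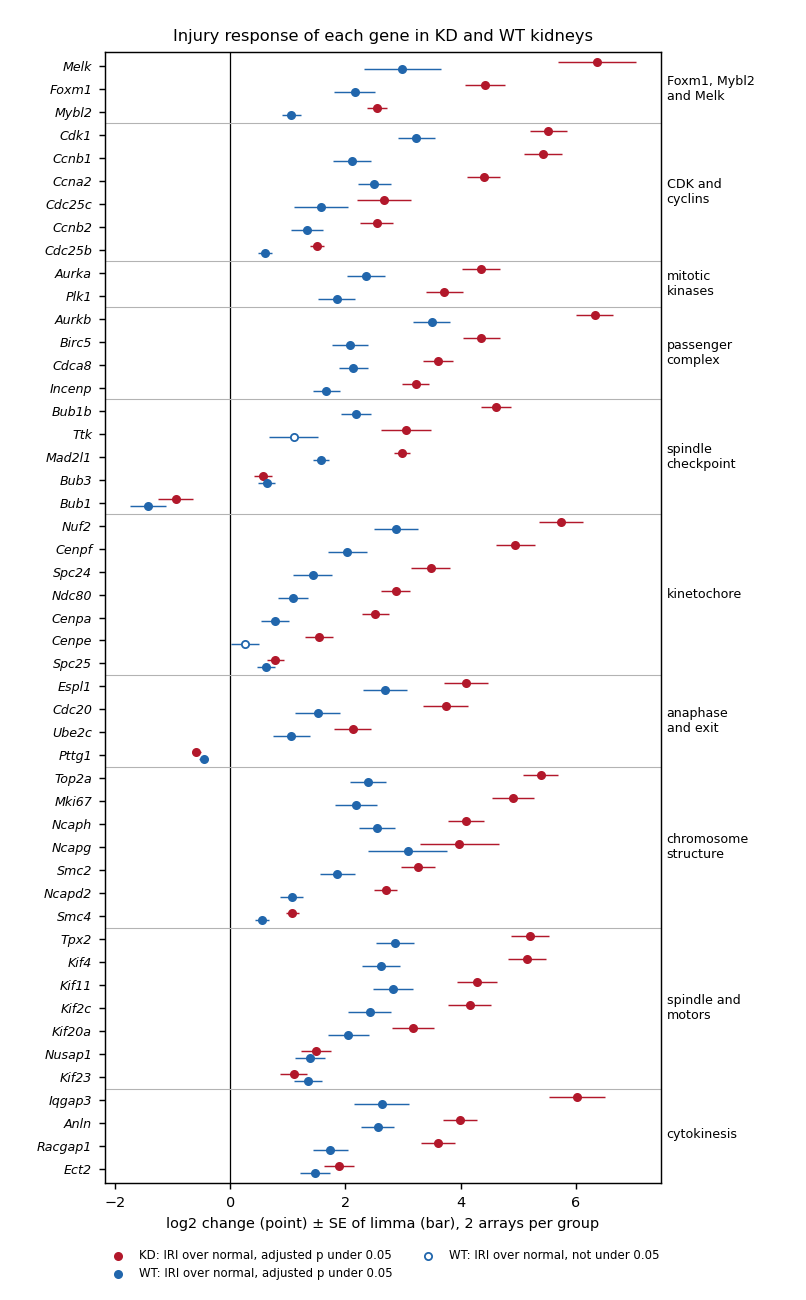
Points give the log2 change of each gene between IRI and normal kidneys, in KD (red) and in WT (blue), with the SE of limma as bars, 2 arrays in each group, and open points mark genes that did not pass an adjusted p of 0.05. Nearly all points lie right of 0, the KD point lies right of the WT point in 46 of 49 genes, and Bub1 and Pttg1 lie left of 0 in both genotypes.

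The spindle checkpoint genes, which hold back anaphase until every chromosome is attached, gave mixed responses. Bub1b, which encodes the checkpoint protein BubR1, stood at -1.29 and -0.80 in KD IRI, -1.90 and -2.46 in WT IRI, -5.88 and -5.44 in KD normal, and -4.39 and -4.35 in WT normal. It rose at least 20.8-fold in KD, where the normal kidneys were below background (adjusted p = 2.85e-05), and 4.57-fold in WT (adjusted p = 0.000829). Mad2l1, the inhibitor of the anaphase-promoting complex, had little spread between replicates and rose 7.89-fold in KD and 2.99-fold in WT. Bub3, which recruits Bub1 and BubR1 to kinetochores, stood at 2.68 and 2.69 in KD IRI, 2.35 and 2.30 in WT IRI, 2.14 and 2.09 in KD normal, and 1.44 and 1.94 in WT normal. Its rise was small, with 0.57 ± 0.15 in KD (adjusted p = 0.0153) and 0.63 ± 0.15 in WT (adjusted p = 0.0132). The other Bub3 probe, A_52_P110040, did not pass in a limma fit of all probes. Its changes were 0.25 ± 0.15 in KD (adjusted p = 0.182) and 0.24 ± 0.15 in WT (adjusted p = 0.231). Ttk, the checkpoint kinase Mps1, stood at -5.04 and -4.42 in KD IRI, -5.84 and -6.76 in WT IRI, -7.68 and -7.87 in KD normal, and -7.37 and -7.41 in WT normal. Both normal groups were below background, and it rose at least 1.70-fold in KD (adjusted p = 0.000855), whereas its change in WT of 1.10 ± 0.43 did not pass the test (adjusted p = 0.0732). Ttk was well above background on both arrays in KD IRI only, so it passed the filter through the group where it was highest. The filter thus favoured its rise in KD and the contrast with WT, and neither is an independent result.

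Bub1, a kinase that brings checkpoint proteins to the kinetochore, has 2 probes that moved in opposite directions. Probe A_52_P259126, assigned to NM_001113179, is the brighter of them and stood at -1.33 and -1.25 in KD IRI, -1.06 and -1.15 in WT IRI, -0.28 and -0.41 in KD normal, and -0.23 and 0.88 in WT normal. Both injured groups lay below both normal groups, and the change in a fit of all probes was -0.95 ± 0.31 in KD (adjusted p = 0.0333) and -1.43 ± 0.31 in WT (adjusted p = 0.00912). Probe A_51_P123405, assigned to NM_009772, stood at -2.34 and -1.78 in KD IRI, -3.05 and -3.98 in WT IRI, -7.34 and -7.54 in KD normal, and -7.12 and -7.13 in WT normal. It was below background in all normal kidneys and rose at least 10.8-fold in KD (adjusted p = 3.8e-05) and at least 2.99-fold in WT (adjusted p = 0.000384). This probe thus passed the filter only through injured arrays. Of the 15 members with more than 1 probe kept, 13 in KD and 10 in WT had all probes called the same way with injury. Bub1 was the 1 gene whose probes were called in opposite directions, and the mean of its probes rose by 2.22 in KD and 1.09 in WT. The fall of the brighter probe in KD did not pass the test when any of the 4 KD arrays was left out (adjusted p between 0.0818 and 0.121).

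**Figure D3:**
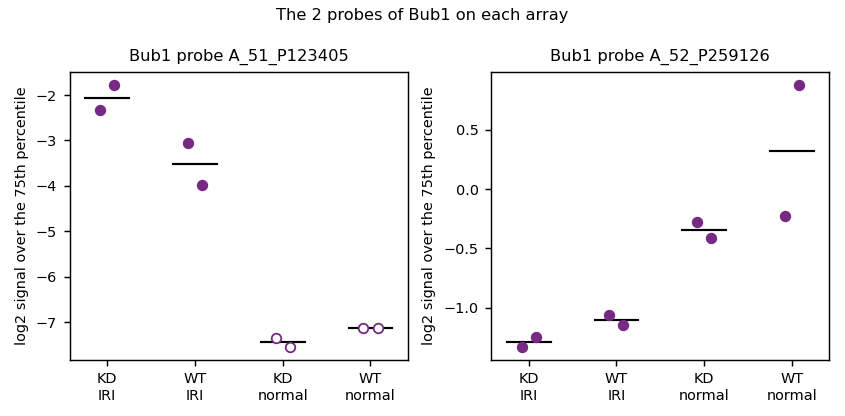
Each point is the log2 signal of a Bub1 probe on an array relative to that array's 75th percentile, lines are the means of 2 arrays, and open points mark groups below background. The probe A_51_P123405 is higher in both IRI groups than in both normal groups, and the probe A_52_P259126 is lower.

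The kinetochore genes rose in 7 of 7 cases in KD and 6 of 7 in WT. Nuf2, a subunit of the Ndc80 complex that binds microtubules, stood at -0.38 and 0.31 in KD IRI, -0.87 and -1.84 in WT IRI, -5.54 and -6.02 in KD normal, and -4.42 and -4.04 in WT normal. It had the largest response of this role, at least 44.1-fold in KD (adjusted p = 4.2e-05) and 7.34-fold in WT (adjusted p = 0.00115). Its partners in the complex moved with it to unequal extents, since Ndc80 rose by 2.87 ± 0.26 and 1.09 ± 0.26, Spc24 by 3.48 ± 0.34 and 1.43 ± 0.34, and Spc25 by 0.78 ± 0.15 and 0.62 ± 0.15 in KD and WT. Spc25 stood at 0.54 and 0.71 in KD IRI, 0.91 and 0.55 in WT IRI, -0.23 and -0.07 in KD normal, and 0.01 and 0.20 in WT normal. Cenpf, a large kinetochore protein of G2 and M phase, rose 30.9-fold in KD and 4.09-fold in WT. Cenpa, the histone H3 variant that marks centromeres, rose by 2.52 ± 0.24 in KD and 0.78 ± 0.24 in WT. Cenpe, the kinetochore motor, stood at 1.34 and 1.92 in KD IRI, 1.2 and 0.6 in WT IRI, 0.02 and 0.17 in KD normal, and 0.61 and 0.67 in WT normal. The WT groups overlapped and the change in WT of 0.26 ± 0.24 did not pass the test (adjusted p = 0.411), and the change in KD of 1.54 ± 0.24 did (adjusted p = 0.00136). In a limma fit of all probes, the dimmer Cenpe probe A_51_P174192 was called higher in WT (1.18 ± 0.38, adjusted p = 0.0408). Probe A_51_P164021 was not (0.05 ± 0.36, adjusted p = 0.922). A_51_P174192 was well above background on both arrays in KD IRI only, so it passed the filter through the group where it was highest. Both normal groups were below background for it, and its call in WT is not an independent result.

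Among the genes of anaphase and mitotic exit, 3 rose and 1 fell in both genotypes. Espl1 encodes separase, the protease that cuts cohesin, and Pttg1 encodes securin, the protein that keeps separase inactive. Espl1 stood at -1.56 and -0.94 in KD IRI, -2.07 and -2.74 in WT IRI, -5.11 and -5.58 in KD normal, and -5.50 and -4.67 in WT normal, and rose at least 17.0-fold in KD (adjusted p = 0.000136) and at least 5.55-fold in WT (adjusted p = 0.00152). Pttg1 was bright and tight on all arrays, at 3.30 and 3.22 in KD IRI, 3.75 and 3.62 in WT IRI, 3.83 and 3.87 in KD normal, and 4.20 and 4.08 in WT normal. It fell 1.51-fold in KD (-0.59 ± 0.082, adjusted p = 0.000825) and 1.37-fold in WT (-0.46 ± 0.082, adjusted p = 0.00409), with no overlap between injured and normal arrays in either genotype. The separase and securin messages thus moved in opposite directions with injury. The fall of Pttg1 did not pass in WT under quantile normalization. In KD neither the fall of Pttg1 nor the rise of Espl1 passed under the normexp correction described below. Cdc20, the activator of the anaphase-promoting complex, stood at 1.55 and 2.10 in KD IRI, 1.55 and 0.35 in WT IRI, -2.0 and -1.83 in KD normal, and -0.81 and -0.33 in WT normal, and rose 13.4-fold in KD and 2.86-fold in WT. Ube2c, the ubiquitin-conjugating enzyme of that complex, had the smallest rise of the 3, with 2.13 ± 0.32 in KD (adjusted p = 0.00126) and 1.06 ± 0.32 in WT (adjusted p = 0.0329).

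All 7 genes of chromosome structure rose in both genotypes. Top2a, the topoisomerase that untangles sister chromatids, stood at -0.53 and 0.05 in KD IRI, -1.27 and -2.03 in WT IRI, -5.54 and -5.72 in KD normal, and -3.85 and -4.25 in WT normal. It rose at least 38.2-fold in KD (adjusted p = 2.87e-05) and 5.26-fold in WT (adjusted p = 0.00107). Mki67, the antigen Ki-67 that coats mitotic chromosomes and is used to count cycling cells, stood at 2.15 and 2.81 in KD IRI, 1.61 and 0.58 in WT IRI, -2.28 and -2.58 in KD normal, and -1.23 and -0.93 in WT normal. It rose 30.1-fold in KD (adjusted p = 5.63e-05) and 4.52-fold in WT (adjusted p = 0.00285). The condensin genes Smc2, Smc4, Ncapd2, Ncapg and Ncaph, which compact chromosomes, covered a wide range. Smc4 had the smallest rise, 2.12-fold in KD (1.08 ± 0.12) and 1.47-fold in WT (0.55 ± 0.12), from levels of 2.25 and 2.47 in KD IRI, 1.94 and 1.66 in WT IRI, 1.29 and 1.26 in KD normal, and 1.22 and 1.27 in WT normal. Ncapg had the largest rise in WT, 8.47-fold (3.08 ± 0.69), and an SE above that of the other members of this role. It stood at 0.60 and 0.86 in KD IRI, 0.00 and -1.12 in WT IRI, -4.38 and -2.12 in KD normal, and -3.71 and -3.57 in WT normal, and the second KD normal array stood apart.

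Spindle and motor genes rose in 7 of 7 cases in both genotypes. Tpx2, which activates Aurora A on the spindle, had the largest rise and stood at -0.42 and 0.23 in KD IRI, -0.99 and -1.77 in WT IRI, -5.19 and -5.41 in KD normal, and -4.50 and -3.99 in WT normal. It rose 36.9-fold in KD (adjusted p = 3.82e-05) and 7.28-fold in WT (adjusted p = 0.000726), and the chromosome-arm motor Kif4 rose 35.8-fold and 6.14-fold. Kif11, the motor that pushes the spindle poles apart, and Kif2c, which depolymerises microtubules at centromeres, were below background in all normal kidneys and rose at least 4.26-fold and at least 6.43-fold in KD. Neither of them was called with injury in KD or WT under the normexp correction described below. Kif20a, a motor of the central spindle, rose by 3.17 ± 0.36 in KD and 2.05 ± 0.36 in WT. Kif23, a motor of the spindle midzone, stood at -1.11 and -0.47 in KD IRI, -1.23 and -1.49 in WT IRI, -2.10 and -1.68 in KD normal, and -2.81 and -2.61 in WT normal. Its rise was 2.14-fold in KD (1.10 ± 0.24, adjusted p = 0.00687) and 2.55-fold in WT (1.35 ± 0.24, adjusted p = 0.00422). Nusap1, which bundles spindle microtubules, rose 2.80-fold and 2.62-fold in KD and WT.

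The 4 cytokinesis genes rose in both genotypes. Iqgap3, a scaffold protein of the IQGAP family, stood at -1.76 and -0.94 in KD IRI, -2.20 and -3.04 in WT IRI, -6.95 and -7.80 in KD normal, and -5.71 and -4.78 in WT normal. It was below background in KD normal and rose at least 17.7-fold in KD (adjusted p = 8.27e-05) and 6.19-fold in WT (adjusted p = 0.00475). Anln encodes anillin, which organises the contractile ring, and rose at least 4.70-fold in KD and at least 1.76-fold in WT. Under the normexp correction described below it was called in neither genotype. Racgap1, which with Kif23 forms the centralspindlin complex, rose 12.2-fold in KD and 3.34-fold in WT. Ect2, the exchange factor that activates RhoA at the cleavage plane, stood at 0.44 and 0.61 in KD IRI, -0.08 and -0.95 in WT IRI, -1.34 and -1.39 in KD normal, and -1.86 and -2.11 in WT normal, which gave the smallest rises of this role, 1.89 ± 0.26 in KD (adjusted p = 0.000808) and 1.47 ± 0.26 in WT (adjusted p = 0.00402).

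The responses of the 2 genotypes share no arrays. Across the 49 genes they correlated with r = 0.906, against 0.82 across all 20580 genes, which is a description across genes that share arrays and are not independent. The signed injury response was more positive in KD than in WT in 46 of the 49 genes, with Bub1 among them through a smaller fall. The interaction, meaning the response to IRI in KD less the response in WT, passed the test upwards in 21 of the 49 genes and downwards in 0, where 3.79% and 2.81% of all genes did. At an unadjusted p under 0.05 limma placed 38 members upwards and 0 downwards in the interaction, where it placed 2787 and 2578 of all 20580 genes. Its median was 1.64 over the members and 0.00 over all genes, with 1.06 on the first slide and 2.33 on the second. Of the 17678 genes above background on all arrays, 658 passed upwards and 513 downwards, with a median of 0. Among the 32 members of these, 12 passed upwards and 0 downwards, with a median of 1.43. The largest of these 12 were Mki67 with 2.74 ± 0.5 (adjusted p = 0.0322), Tpx2 with 2.34 ± 0.47 (adjusted p = 0.0378) and Cdk1 with 2.29 ± 0.45 (adjusted p = 0.0375). The fitted values of Iqgap3, Ccnb1 and Top2a were 3.39, 3.32 and 2.99, but these genes were below background in KD normal, so that their sizes rest on signals that were not measured above background. Bub3, Kif23, Pttg1, Nusap1 and Spc25 had interactions between -0.25 and 0.15 that did not pass. The 21 calls depended on single arrays. Without the first WT IRI array there were 32, without the second 12, without the first KD normal array 13 and without the second 2, without the first KD IRI array 1, and without the second KD IRI array or either WT normal array 0. The median stayed between 1.33 and 1.92 over these fits.

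By construction the interaction is the genotype difference in injured kidneys minus that in normal kidneys, and the 2 differences ran in opposite directions for most members. In injured kidneys most members were higher in KD. In KD IRI against WT IRI, 44 of the 49 genes were higher and 2 lower without overlap between the groups, where 25.7% and 31.3% of all genes were, and the median was 1.07 over the members and -0.04 over all genes. At an unadjusted p under 0.05, 39 members were higher and 1 was lower, where 2623 and 2894 of all 20580 genes were. At an adjusted p under 0.05, 7 members were higher and 1 was lower, where 3.69% and 3.42% of all genes were. The 7 were Top2a, Ccna2, Mybl2, Bub1b, Incenp, Mad2l1 and Smc4, and Pttg1 was lower. Top2a was higher by 1.41 ± 0.31 (2.66-fold, adjusted p = 0.0418), Ccna2 by 1.30 ± 0.29 (2.46-fold, adjusted p = 0.0478), Mybl2 by 1.25 ± 0.17 (2.38-fold, adjusted p = 0.0167) and Mad2l1 by 0.96 ± 0.14 (1.95-fold, adjusted p = 0.0185). Bub1b was higher 2.20-fold, Incenp 2.08-fold and Smc4 1.47-fold, and Pttg1 was lower by 1.34-fold (-0.43 ± 0.082, adjusted p = 0.0308). Mki67, with a difference of 1.38 ± 0.36, and Cdk1, with 1.21 ± 0.32, did not pass (adjusted p = 0.0635 and 0.0684).

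The size of this difference was unequal between the slides, since the median over the members was 0.49 on the first slide and 1.72 on the second. The replicates of the injured groups differed over the whole set. In WT IRI, 47 of the 49 genes were higher on the first array, and the median difference of first minus second array was 0.74. In KD IRI 47 were higher on the second array, and the same median difference was -0.55. Over all genes these medians were close to 0. All 22 DNA replication genes were also higher on the first WT IRI array, with a median difference of 0.54, as were 8 of 8 proximal tubule markers, with 0.69. The tubule injury markers had a median difference of -0.47 in WT IRI. The summed neutrophil signal ranged from 48.8 to 104 over the WT IRI arrays and from 52.6 to 58.4 over the KD IRI arrays. The part of these differences in the genotype result was not tested. Without the first WT IRI array 23 members were called between KD IRI and WT IRI, without the second 3, without either KD IRI array 0, and without a normal array between 1 and 3. With the slide as a block 6 were called, 5 higher and 1 lower.

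In normal kidneys the direction was the opposite. In KD normal against WT normal, 11 of the 49 genes were lower and 0 were higher by limma, where 8.79% and 6.39% of all genes were. At an unadjusted p under 0.05, 24 were lower and 3 higher, where 3761 and 3004 of all 20580 genes were. Without overlap between the groups, 40 were lower and 3 higher, where 34.5% and 29.9% of all genes were. The median was -0.61 over the members and -0.03 over all genes, with -0.60 and -0.86 on the 2 slides. The 11 were Ccnb1, Iqgap3, Aurkb, Top2a, Nuf2, Cenpf, Mki67, Bub1b, Kif4, Cdc25b and Ncapd2. Aurkb was below background in both groups. Ccnb1, Iqgap3, Top2a, Nuf2 and Bub1b were below background in KD normal only, with Ccnb1 and Iqgap3 above background on 1 of the 2 WT normal arrays, and were lower by at least 1.34-fold, 1.19-fold, 2.73-fold, 2.41-fold and 2.07-fold. The other 5 had signal on at least 1 array of each group. Cdc25b was lower 1.94-fold (-0.95 ± 0.12, adjusted p = 0.00804), Ncapd2 1.81-fold (-0.86 ± 0.20, adjusted p = 0.0361), Mki67 2.55-fold (-1.35 ± 0.36, adjusted p = 0.047), Cenpf 2.92-fold and Kif4 2.37-fold. Kif23, Ect2 and Bub3 were higher in KD on every array, with 0.82 ± 0.24, 0.62 ± 0.26 and 0.43 ± 0.15, and did not pass (adjusted p = 0.064, 0.152 and 0.101). In a limma fit of all probes, the other Kif23 probe, A_52_P27602, was called higher (1.01 ± 0.27, adjusted p = 0.0464).

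The direction in normal kidneys was not kept when normexp-corrected spot medians replaced the processed intensity, and the cause of this was not tested. Under the normexp correction, which models the background again from the spot medians, the median over the members was 0.30 with 17 of the 49 negative, where the median of all genes was 0.15. Over the 32 genes above background on all arrays it was -0.06, against -0.52 without that correction. Mki67, Cdc25b and Ncapd2 stayed lower (-0.82, -0.80 and -0.77), Cdc20 joined them (-0.92), and Kif23 and Ncapg were called higher (0.92 and 0.95), while Ccnb1, Iqgap3, Aurkb, Top2a, Nuf2, Cenpf, Bub1b and Kif4 turned to values from 0.13 to 0.76. Leaving out 1 array gave from 0 calls (without the second WT normal array) to 21 (without either WT IRI array), and none of the 11 was called in every such fit.

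**Figure D4:**
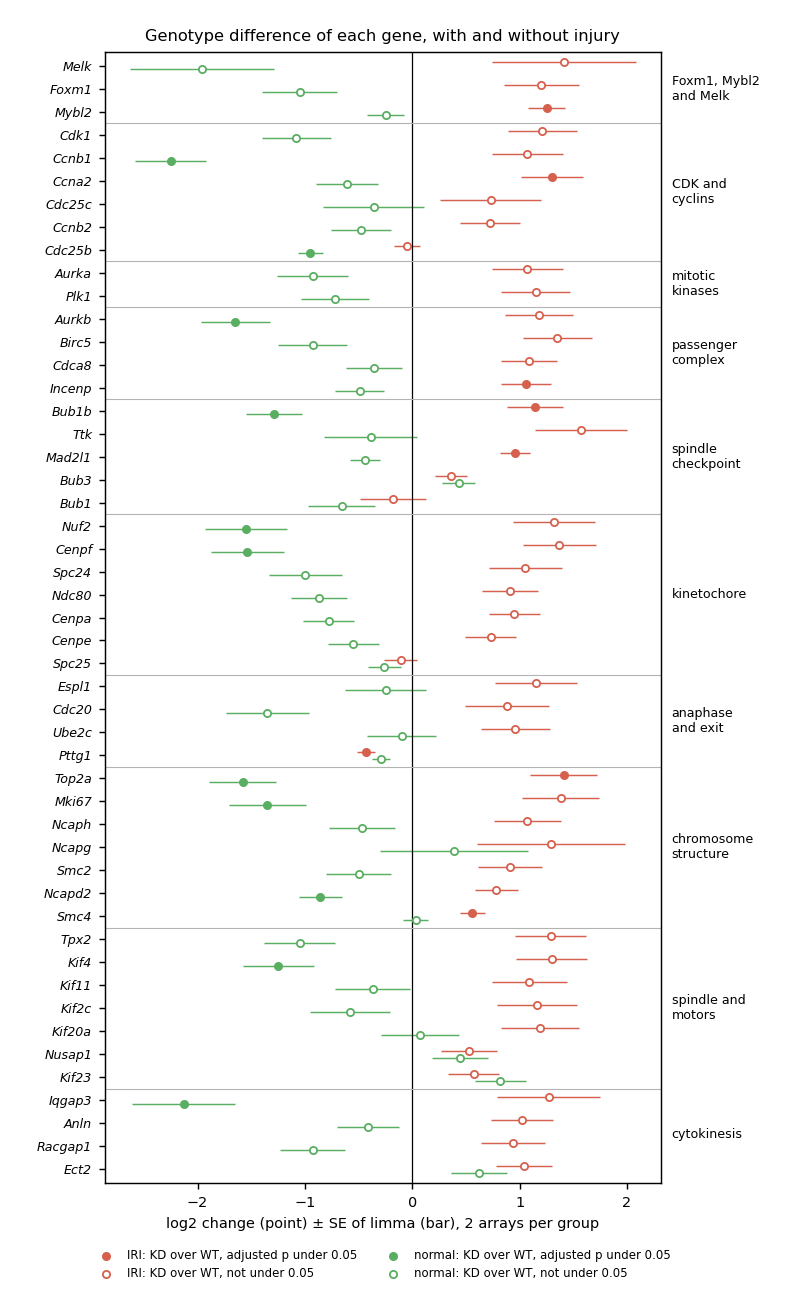
Points give the log2 difference between KD and WT of each gene, in IRI kidneys (red) and in normal kidneys (green), with the SE of limma as bars, 2 arrays in each group, and open points mark genes that did not pass an adjusted p of 0.05. In IRI kidneys 45 of 49 points lie right of 0, in normal kidneys 42 of 49 lie left of it, and most of the points are open.

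Other genes of cell division were set beside the members. Of all genes tested, 27.5% rose and 31.8% fell with injury in KD, and 20.6% rose and 25.2% fell in WT. Between KD IRI and WT IRI, 3.69% of all genes were higher in KD. Of 62 further mitosis genes, 57 rose and 2 fell with injury in KD, and 48 rose and 1 fell in WT, and 18 were higher in KD IRI than in WT IRI with a median of 0.99. Ska1, a kinetochore protein, was below background in normal kidneys and rose at least 27.1-fold in KD and at least 8.36-fold in WT, and Kif20b, a kinesin of late mitosis, fell by 1.94 and 1.75 on the log2 scale. Of 22 DNA replication genes, 21 rose in KD and 20 in WT, and 16 were higher in KD IRI than in WT IRI, with a median of 1.03. Mcm5, a subunit of the replicative helicase, stood at 3.51 and 3.54 in KD IRI, 2.65 and 1.73 in WT IRI, -1.61 and -1.63 in KD normal, and -1.94 and -1.01 in WT normal. Of 9 G1/S cyclins and kinases, 7 rose in KD and 6 in WT, with cyclin E1 (Ccne1) 26.9-fold and 8.44-fold higher after injury. Of 17 genes of the MuvB, E2F and RB families, 11 rose and 3 fell in KD, and 7 rose and 3 fell in WT. The rises were led by the repressors E2f7 (at least 28.3-fold in KD and 8.56-fold in WT) and E2f8 (at least 9.94-fold and 2.64-fold), and the pocket protein gene Rbl2 fell by 1.39 and 0.60 on the log2 scale. Of 15 genes of the anaphase-promoting complex and its regulators, 8 rose and 1 fell in KD, and 5 rose and 1 fell in WT. Their medians were 0.26 and 0.15, below those of the members, and its inhibitor Fbxo5 rose most, by 2.66 and 0.93.

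Inhibitors of the cell cycle and markers of arrest were also counted. Of 17 such genes, 5 rose and 6 fell with injury in KD, where 27.5% and 31.8% of all genes did, so these shares were near those of all genes. In WT 8 rose and 0 fell, where 20.6% and 25.2% of all genes did. At an unadjusted p under 0.05, 0 fell in WT as well, where 6125 of all 20580 genes did. Between KD IRI and WT IRI 0 passed the test of limma, where 3.69% of all genes were higher and 3.42% lower. At an unadjusted p under 0.05, 3 were higher and 2 lower, where 2623 and 2894 of all 20580 genes were. In KD normal against WT normal, Cdkn1a, Plk3 and Cdkn2b were higher. Cdkn1a, which encodes the CDK inhibitor p21, stood at 1.18 and 1.42 in KD IRI, 0.60 and 1.41 in WT IRI, -0.51 and 0.84 in KD normal, and -3.03 and -2.50 in WT normal. It was 7.59-fold higher in KD normal than in WT normal (2.92 ± 0.46, adjusted p = 0.0115) and rose 13.6-fold with injury in WT (adjusted p = 0.000895), and its injury response in KD of 1.14 ± 0.46 did not pass (adjusted p = 0.0674).

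Markers of blood and endothelial cells were counted as well. Of all genes tested, 27.5% rose and 31.8% fell with injury in KD, and 20.6% rose and 25.2% fell in WT. Of 6 neutrophil markers, 5 rose in each genotype, and their summed signal was 52.6 to 58.4 in KD IRI, 48.8 to 104 in WT IRI, 0.764 to 6.13 in KD normal and 0.305 to 0.306 in WT normal. Elane was not well above background on enough arrays to be kept. Of 8 macrophage markers, 7 rose and 1 fell in KD, and 6 rose and 1 fell in WT. Their sum was 7.68 to 9.71 in KD IRI, 7.16 to 7.46 in WT IRI, 4.17 to 4.94 in KD normal and 4.97 to 5.04 in WT normal. Of 7 lymphocyte markers, 2 rose and 1 fell in KD, and 0 rose and 3 fell in WT. At an unadjusted p under 0.05, 0 of these markers were higher in WT, where 4944 of all 20580 genes were. Their sum was 0.402 to 0.444 in KD IRI, 0.306 to 0.516 in WT IRI, 0.269 to 0.430 in KD normal and 0.740 to 0.838 in WT normal, and Cd3e, Cd4 and Cd79a were not kept. Of 6 endothelial markers, 3 rose and 1 fell in KD, and 2 rose and 1 fell in WT, and of 4 erythroid markers, 1 rose and 2 fell in KD, and 1 rose and 3 fell in WT. Between KD IRI and WT IRI, the proximal tubule marker Slc5a2 was the 1 called gene among these and the tubule lists, with a difference of -0.34. Of all genes tested, 3.69% were called higher and 3.42% lower in that comparison. The part of these cells in the results on mitosis genes was not tested.

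**Figure D5:**
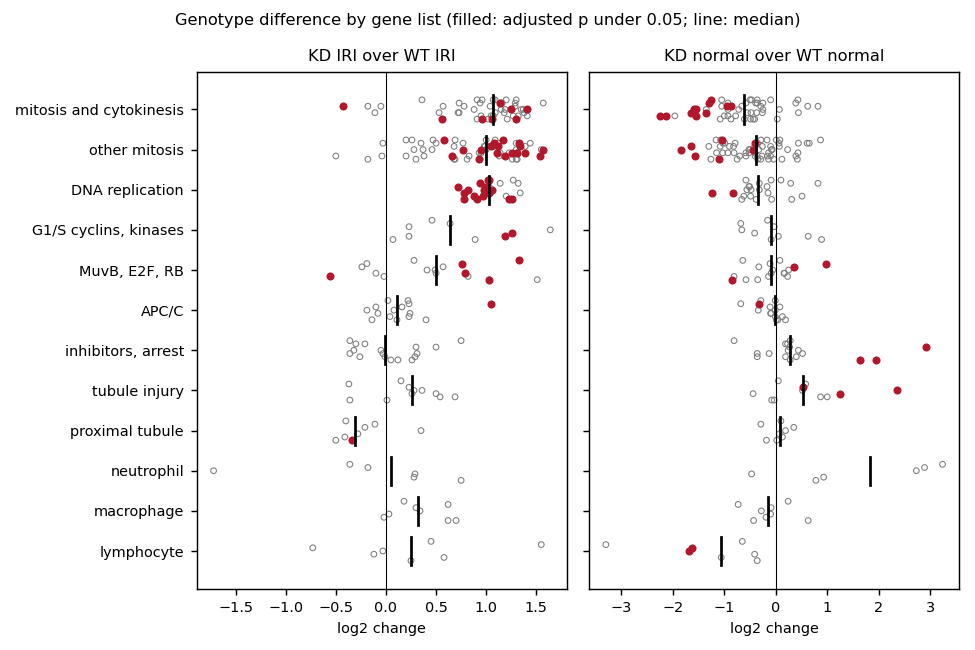
Each point is a gene, placed by its log2 difference between KD and WT in IRI kidneys (left) and in normal kidneys (right), in rows by gene list, with filled points for an adjusted p under 0.05 and a line at the list's median. In IRI kidneys the medians of the mitosis and DNA replication lists lie near 1, and in normal kidneys they lie below 0.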

How the data were processed

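Messenger RNA was measured on 8 single-colour arrays, 2 per group. Feature Extraction 10.7.3.1 had given each spot a processed intensity, corrected for background and for trends over the array, per the file headers. The deposited series table holds log2 values that tracked the same signal centred per probe, with unstated scaling (column medians of -0.136 and -0.117 in KD IRI, -0.0746 and -0.0822 in WT IRI, 0.0952 and 0.0564 in KD normal, 0.16 and 0.125 in WT normal), and was used as an alternative.

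The log2 intensity minus each array's 75th percentile was analysed. None of the 43379 spots that are not controls was saturated. Control and outlier spots were left out, and replicate spots averaged. Probes had to be well above background on both arrays of any group, as 27408 of 41174 were, and the brightest probe stood for its gene. RefSeq accessions were paired with symbols of a later assembly (26690 probes). Below background, folds are lower bounds, taken against the lowest signal well above background.

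All 8 arrays entered 1 model of group means in limma (version 3.58.1, under R 4.3.3) with an intensity trend (residual degrees of freedom 4, prior 2.94 at the median), 5 contrasts, two-sided, with Benjamini-Hochberg adjustment over 20580 genes. The number of arrays limits the precision. Members and gene lists were chosen with earlier results of these data known. In each role, values are given per array for the members with the largest and smallest called change and those called the other way or not called, with a few others chosen after their values were seen, and companion lists are named by their largest changes. Other normalizations, background corrections, filters, tables, probe rules, weights, blocks and left-out arrays were run. The files lack the mean spot signal, so normexp used the median.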

Additional observations from a re-analysis of the deposited data

Results flagged for a closer look

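The injury response differed between the genotypes, by the interaction test of limma, in 21 of the 49 genes. All 21 had the larger response in KD kidneys, where 3.79% of all genes passed upwards and 2.81% downwards. Under the normexp correction 6 of the 21 stayed called, and Ccnb1, Aurkb and Ndc80 turned negative. The values are log2 differences, the response to IRI in KD less the response in WT. Among the 12 genes whose probe was above background on all 8 arrays they were Mki67 2.74, Tpx2 2.34, Cdk1 2.29, Birc5 2.27, Foxm1 2.25, Ccna2 1.91, Cenpa 1.73, Ncapd2 1.64, Incenp 1.54, Mybl2 1.5, Mad2l1 1.40 and Cdc25b 0.90. Among the 9 with at least 1 array below background, where the fitted size rests in part on signals not measured above it, they were Iqgap3 3.39, Ccnb1 3.32, Top2a 2.99, Cenpf 2.91, Nuf2 2.87, Aurkb 2.83, Kif4 2.54, Bub1b 2.43 and Ndc80 1.78. The 4 groups hold 2 arrays each, so no search for a single outlying array within a group was made. None of the 21 passed in every fit that left out 1 array.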

How the results depend on the processing

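The injury results kept their direction in nearly every setting. Of 47 members called in WT, 29 were called in every alternative in which they were tested, with the fits without 1 array included. Of 49 called in KD, 35 were. The setting that required all 8 arrays above background tested only 32 members, so the others among them were not tested there. Fits without 1 array gave 35 to 47 calls and medians of 1.44 to 2.31 for the WT injury response, 47 to 49 and 3.39 to 3.94 in KD, 0 to 21 and -0.71 to -0.52 for KD normal against WT normal, 0 to 23 and 0.75 to 1.45 for KD IRI against WT IRI, and 0 to 32 and 1.33 to 1.92 for the interaction. No member called in the last 3 comparisons was called in all of these fits, and the labels' 2 replicates per group limit what they can show. Normexp shifted the median of all genes to 0.20, -0.34, 0.15, -0.22 and -0.31 in the order of injury in WT, injury in KD, genotype in normal kidneys, genotype in injured kidneys, and interaction. No filter on dim probes shifted it to -0.29, -0.31, -0.15, 0.02 and 0.11. Under normexp the KD injury median was 1.76, with Ttk at -0.33 and Cdc25c at -0.46. The injury calls under normexp were 41 in WT and 38 in KD. Cenpa, Ndc80, Kif11, Kif2c and Anln lost their calls in both genotypes, and Kif23, Espl1, Pttg1 and Ncaph lost theirs in KD only. The median of KD normal against WT normal was 0.30 with 6 calls, and Ccnb1 (0.52), Aurkb (0.76), Bub1b (0.47), Top2a (0.21), Cenpf (0.13), Nuf2 (0.35), Kif4 (0.28) and Iqgap3 (0.42) turned. KD IRI against WT IRI had 16 calls, 3 of them among the 8 of the report, and a median of 0.68. The interaction had 13 calls and a median of 0.30, with Ccnb1 at -0.23, Aurkb at -0.36 and Ndc80 at -0.71. Under normexp, Bub1 probe A_51_P123405 rose by 1.80 in WT and 1.12 in KD without passing (adjusted p = 0.0801 and 0.297). The cause of the normexp differences was not tested.

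KD normal against WT normal had 2 calls with no filter, 3 when all 8 arrays had to be above background and 7 without the intensity trend. KD IRI against WT IRI had 2 calls in the deposited table, 3 with no filter, 2 without the trend, 5 with array weights, 0 with only the arrays compared and 5 with a 2-fold minimum. The interaction had 8, 3, 13 and 7 calls with the deposited table, no filter, all 8 arrays above background and no trend. Requiring all 8 arrays left 32 members to test, and 31 in WT and 32 in KD were called for injury, with a KD median of 3.08. The mean of all probes turned Bub1 to 1.09 in WT and 2.22 in KD. The fall of Bub1 probe A_52_P259126 in KD (-0.95) did not pass with no filter or with array weights (adjusted p = 0.0542 and 0.0875) and lay between -1.02 and -0.88 without 1 array. Without 1 array that probe ranged from -1.22 to -0.11 in KD normal against WT normal, and probe A_51_P123405 from 0.99 to 1.92 in KD IRI against WT IRI and from 1.30 to 2.24 in the interaction. Same-numbered samples correlated in their deviations with r from 0.0216 to 0.262. With 2 arrays per group, differently numbered samples give only the mirror value, so this measure cannot decide whether the numbers mark pairs. The replicate block, which equals the slide block, gave 47, 49, 11, 6 and 21 calls in the order above.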
